A study of Mus musculus with 40 samples.

Results

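Members of the bile acid and canalicular transporter families, 9 genes whose products carry bile acids, phospholipids and organic anions across the membranes of the liver cell, were followed through the liver and the gonadal fat (gWAT, white adipose tissue next to the gonads) of mice whose fathers had been exposed to nicotine. They are Slc10a1, Slco1a1, Slco1b2, Slco2b1, Slc10a2, Abcb11, Abcb4, Abcc2 and Abcc3, 9 of the 20078 gene symbols in the 4 deposited tables. The genes were chosen by symbol with their nicotine-against-control values in these tables already known, so each such difference below, and its contrast between the sexes, is a description. Counts past limma's threshold are printed beside the share over all genes as part of that description, and nothing is read from them. All 9 are listed in both liver tables, 8 are listed in both gWAT tables, and Slc10a2 was not analysed in gWAT.

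The animals were C57BL/6J mice, and the groups used here were female liver nicotine, female liver control, male liver nicotine, male liver control, female gWAT nicotine, female gWAT control, male gWAT nicotine and male gWAT control. Nicotine here means paternal exposure, and the table headers call the control DMSO. The labels give 5 samples a group, and 39 libraries were analysed because the male gWAT table has 4 control columns, numbered 1 to 4, which cannot be tied to single samples among the 5 labelled ones. Neither the dose, the age of the offspring nor the father or litter of each animal is given in the sources used here, so a p-value here reflects just the variation among these libraries, part of which may be technical. RNA was measured by 3′-tag sequencing, which counts polyadenylated transcripts of the whole tissue by their 3′ ends. In such bulk samples fewer cells of a type and less RNA per cell cannot be told apart.

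Bile acids circulate between liver and gut. Hepatocytes take them up from the portal blood through Ntcp (Slc10a1) and the organic anion transporting polypeptides of the Slco family, and pump them into the bile canaliculus through Bsep (Abcb11), while Mdr2 (Abcb4) brings phosphatidylcholine and Mrp2 (Abcc2) brings conjugated anions such as bilirubin glucuronide into bile. Mrp3 (Abcc3) returns conjugates to the blood, and Asbt (Slc10a2) is best known as the sodium-dependent bile acid carrier of the ileum, with expression also in bile duct cells and kidney tubules.

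Values are DESeq2 normalized counts as deposited, read counts divided by 1 size factor per library within a table, and they are compared only within a table unless stated. The libraries held 1543208 to 2239073 reads assigned to genes. In female liver the nicotine libraries held 1811932 to 1998332 reads and the control libraries 2045023 to 2152027, so depth itself did not overlap between those groups. Tissue identity was read from 14 hepatocyte markers, of which 13 were listed. Their summed normalized count ran from 125937 to 147239 in female liver nicotine libraries and from 129938 to 147560 in female liver control libraries, and from 100995 to 139267 in male liver nicotine libraries and from 114756 to 130801 in male liver control libraries. Some libraries also held transcripts of other tissues. Pancreatic acinar markers summed to 11861 normalized counts in male liver nicotine library 2, against 26.2 to 138 in the other 9 male liver libraries, and skeletal muscle markers summed to 9552 in male liver nicotine library 4, against 0 to 10.5 in the other 9.

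Start sites of 5 members are shown: the 4 uptake carriers Slc10a1, Slco1a1, Slco1b2 and Slco2b1, which were low together in the same male liver libraries below, and Slc10a2, which was high in all 5 male liver nicotine libraries. Each window runs 5′ to 3′ from 250 bases before to 50 bases after an annotated start (RefSeq, GRCm38.p6). Capitals mark AGGTCA, the half-site that nuclear receptors read, GTTAAT, an HNF1 half-site, and TTCNNNGAA, a STAT-type palindrome, each searched on both strands. The windows lie at chr12:80968656-80968955 (minus strand) for Slc10a1, chr6:141946913-141947212 (minus strand) for Slco1a1, chr6:141629268-141629567 (plus strand) for Slco1b2, chr7:99711291-99711590 (minus strand) for Slco2b1 and chr8:5105238-5105537 (minus strand) for Slc10a2.
Slc10a1: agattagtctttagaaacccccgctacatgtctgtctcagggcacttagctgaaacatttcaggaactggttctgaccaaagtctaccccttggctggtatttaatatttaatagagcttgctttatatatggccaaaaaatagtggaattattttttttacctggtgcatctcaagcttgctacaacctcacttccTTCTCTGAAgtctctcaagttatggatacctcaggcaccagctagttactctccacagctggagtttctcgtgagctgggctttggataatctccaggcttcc
Slco1a1: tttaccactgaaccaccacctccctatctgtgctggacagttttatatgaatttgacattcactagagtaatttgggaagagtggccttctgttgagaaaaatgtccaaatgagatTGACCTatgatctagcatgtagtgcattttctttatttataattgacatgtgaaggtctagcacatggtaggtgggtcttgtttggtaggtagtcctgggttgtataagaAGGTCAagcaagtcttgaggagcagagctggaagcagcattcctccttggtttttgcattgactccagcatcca
Slco1b2: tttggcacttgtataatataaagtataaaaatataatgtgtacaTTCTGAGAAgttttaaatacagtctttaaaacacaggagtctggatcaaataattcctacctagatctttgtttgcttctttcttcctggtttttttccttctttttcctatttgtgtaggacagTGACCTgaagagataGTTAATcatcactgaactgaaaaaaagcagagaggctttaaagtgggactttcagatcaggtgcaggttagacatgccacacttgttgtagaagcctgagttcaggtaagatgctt
Slco2b1: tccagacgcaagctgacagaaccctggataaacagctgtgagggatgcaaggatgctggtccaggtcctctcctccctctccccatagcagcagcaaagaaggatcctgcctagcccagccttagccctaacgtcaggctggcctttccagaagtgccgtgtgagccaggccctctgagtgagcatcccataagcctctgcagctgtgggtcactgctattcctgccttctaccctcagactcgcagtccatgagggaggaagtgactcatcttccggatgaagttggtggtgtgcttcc
Slc10a2: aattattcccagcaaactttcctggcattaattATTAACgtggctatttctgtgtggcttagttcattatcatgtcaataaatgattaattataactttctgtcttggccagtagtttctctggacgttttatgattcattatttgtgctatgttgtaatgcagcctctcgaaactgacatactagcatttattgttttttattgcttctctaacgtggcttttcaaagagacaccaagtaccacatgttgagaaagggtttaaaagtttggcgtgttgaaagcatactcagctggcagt

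Slco1a1 held 2 copies of AGGTCA, and Slco1b2 held 1 copy of each of the 3 motifs. Slc10a1 held 1 copy of TTCNNNGAA, Slc10a2 held 1 copy of GTTAAT, and the Slco2b1 window shown held none of the 3. Slc10a1 has 2 annotated windows and Slco2b1 has 3, and only 1 of each was searched. Windows were found for 8 of the 9 members, and among these 8 AGGTCA was present in 4 (also in Abcb11 and Abcc2), GTTAAT in 2, TTCNNNGAA in 2 and the E-box CACGTG in 0. Of all 32851 windows in the table, 16.3% held AGGTCA, 7.10% GTTAAT, 8.30% TTCNNNGAA and 7.15% CACGTG. A match is a run of letters in this window and no evidence that a factor binds there.

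In male liver the 4 basolateral uptake carriers fell apart into libraries near the controls and 2 libraries far below them. Slc10a1, the sodium-taurocholate cotransporter, had 133, 623, 638, 538 and 156 normalized counts in male liver nicotine libraries 1 to 5, against 733, 601, 932, 575 and 634 in male liver control libraries 1 to 5. Nicotine libraries 1 and 5 were low and the other three lay within or just below the control range. The mean was 418 ± 252 in nicotine libraries and 695 ± 145 in control libraries (SD, n = 5 each).

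Slco1a1 (Oatp1a1), an uptake carrier for conjugated steroids and bile acids, had 8.83, 974, 957, 950 and 82.7 normalized counts in male liver nicotine libraries 1 to 5. The male liver control libraries had 1215, 915, 1212, 1060 and 1261. Library 1 was nearly empty of this transcript and library 5 was low, while libraries 2, 3 and 4 sat within the control range. Slco1b2 (Oatp1b2), the rodent counterpart of the human OATP1B carriers, had 2320, 7878, 7546, 6207 and 2574 normalized counts in male liver nicotine libraries 1 to 5, against 9744, 8368, 9028, 8645 and 7951 in male liver control libraries. Here every nicotine library was below every control library, by a wide margin only in libraries 1 and 5. Slco2b1 (Oatp2b1), a broad organic anion carrier, had 75.0, 241, 243, 193 and 74.5 normalized counts in male liver nicotine libraries and 260, 225, 248, 237 and 253 in male liver control libraries. The groups overlapped through libraries 2 and 3.

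**Figure D1:**
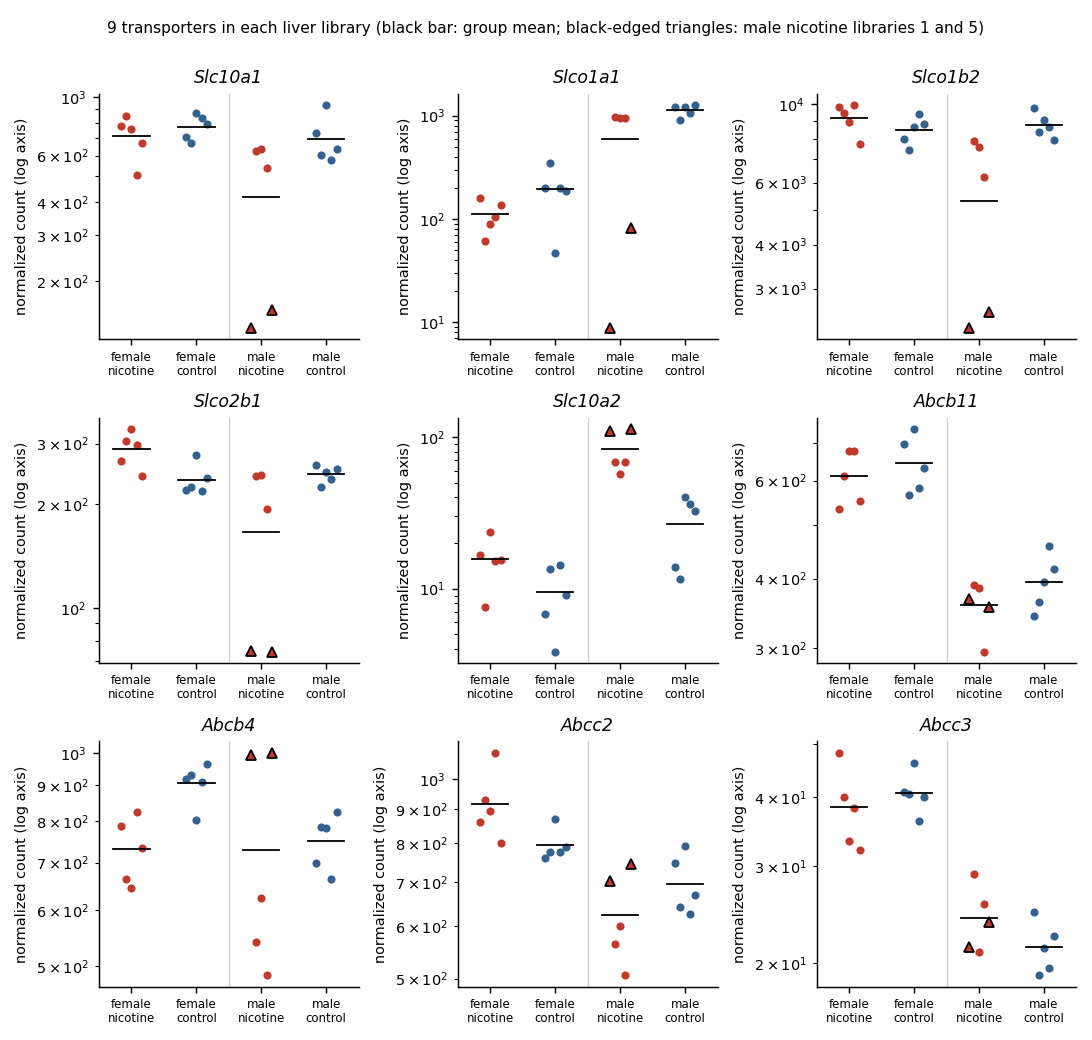
Normalized counts on a log axis for each of the 9 transporters in every liver library, by sex and paternal exposure, with nicotine in red, control in blue and a black bar at each group mean. In male liver nicotine libraries 1 and 5 (black-edged triangles) Slc10a1, Slco1a1, Slco1b2 and Slco2b1 lie below the other 8 male libraries, and Slc10a2 and Abcb4 lie above them.

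Slc10a2 went the other way. It had 109, 68.4, 56.6, 67.8 and 113 normalized counts in male liver nicotine libraries 1 to 5, against 13.8, 11.6, 39.9, 36.2 and 32.5 in male liver control libraries. All 5 nicotine libraries were above all 5 control libraries, and libraries 1 and 5 were again the extremes. The means were 82.9 ± 26.0 in nicotine libraries and 26.8 ± 13.1 in control libraries (SD, n = 5 each), a ratio of 3.09, from 459 reads in all nicotine libraries and 136 in all control libraries. The authors' deposited table lists a log2 fold change of 1.26 for Slc10a2 in male liver, with an adjusted p of 0.0012 from DESeq2. There 154 of the 14591 listed genes had an adjusted p under 0.05. Limma's adjusted p for Slc10a2 in male liver was 0.113, above that threshold.

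Because Slc10a2 is known from gut and bile duct, markers of those cells are given beside it. Of 12 cholangiocyte markers 10 were listed, with summed normalized counts of 1007 to 1421 in male liver nicotine libraries and 1271 to 1493 in male liver control libraries, and the defining duct keratin Krt19 stood at 0 to 2.21 in nicotine and 0 to 4.89 in control libraries. Of 12 intestinal epithelium markers 3 were listed (Fabp2, Apoa4 and Lgals4), and the other 9, Cdx1, Cdx2 and Fabp6 among them, were not. Apoa4, which the liver also makes, had 722, 81.9, 113, 138 and 660 normalized counts in nicotine libraries 1 to 5, against 67.5 to 174 in control libraries. Fabp2 had 130 to 169 in nicotine libraries and 111 to 155 in control libraries. Lgals4 had 8.83, 16.6, 14.7, 14.1 and 4.91 in nicotine libraries 1 to 5, against 7.83 to 20.4 in control libraries. Their part in the Slc10a2 difference was not tested.

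At the canalicular membrane the male groups overlapped for all 3 pumps. Abcb4, the phospholipid floppase, had 994, 541, 623, 485 and 1001 normalized counts in male liver nicotine libraries 1 to 5, against 700, 787, 783, 664 and 824 in male liver control libraries. Libraries 1 and 5 were above every control library and libraries 2, 3 and 4 were below every one of them, so the group means, 729 ± 250 in nicotine and 752 ± 66.6 in control libraries, nearly coincided. Abcc2 had 703, 564, 601, 506 and 745 normalized counts in male liver nicotine libraries and 747, 640, 793, 626 and 668 in male liver control libraries, with the same 2 nicotine libraries highest in their group and the groups overlapping. Abcb11, the bile salt export pump, ranged from 296 to 390 in nicotine libraries and from 342 to 457 in control libraries. Abcc3, the basolateral efflux pump, ranged from 20.9 to 29.0 in nicotine libraries and from 19.0 to 24.7 in control libraries. Neither gene set libraries 1 and 5 apart.

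**Figure D2:**
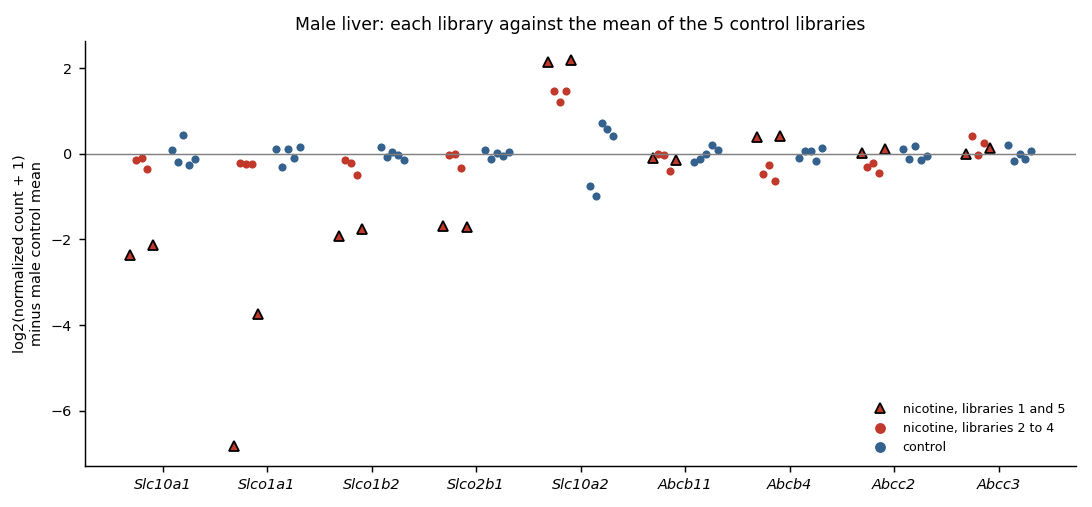
Male liver only: log2(normalized count + 1) of each library minus the mean of the 5 control libraries, for the 9 transporters, with nicotine to the left of control for each gene. Nicotine libraries 1 and 5 (triangles) are far below 0 for Slc10a1, Slco1a1, Slco1b2 and Slco2b1 and above 0 for Slc10a2 and Abcb4. On this scale Abcb11, Abcc2 and Abcc3 stay close to 0.

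Other transcripts set the same 2 libraries apart. The summed normalized count of 20 male-biased liver genes, all listed, was 4195 in nicotine library 1 and 8987 in library 5, against 26506 to 50838 in the other 8 male liver libraries. Elovl3 and Hsd3b5, both members of that list, stood at 0 in library 1 and at 1.64 and 0.819 in library 5. Of 14 Kupffer cell and macrophage markers, all listed, the sum was 1194 in library 1 and 1166 in library 5, against 695 to 898 in the other 8. The hepatocyte marker sum was 102769 in library 1 and 100995 in library 5, against 114756 to 139267 in the other 8. The size factors that divide the reads were 1.36 in library 1 and 1.22 in library 5, against 0.781 to 1.13 in the other 8. Assigned reads were 2018748 in library 1 and 1880082 in library 5, against 1566895 to 2035791 in the other 8. A lower normalized sum in these 2 libraries therefore need not be a lower share of their reads. Mesothelial markers, 7 of 10 listed, summed to 359 in library 1 and 382 in library 5, against 122 to 168 in the other 8. That list includes the keratins Krt8, Krt18 and Krt19, and Krt19 is also a cholangiocyte marker here, so its sum need not stand for mesothelial cells. Adipocyte markers, 11 of 12 listed, summed to 1250 in library 1 and 1151 in library 5, against 1714 to 2686 in the other 8. Endothelial and fibroblast markers of fat, all 12 listed, also set library 4 apart, with sums of 2087, 1174, 1090, 2158 and 1922 in nicotine libraries 1 to 5, against 1079 to 1257 in control libraries. The part of any of these in the transporter values was not tested.

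Across male liver as a whole, 2 of the 9 transporters had nicotine and control libraries that did not overlap (Slc10a2 higher, Slco1b2 lower), where 3.16% of the 9093 tested genes did so in either direction. With limma on log2(normalized count + 1), where the adjusted p threshold was 0.05 (Benjamini-Hochberg), 0 of the 9 met it, as did 0.055% of all tested genes (5 of 9093). Since those values were known when the genes were chosen, nothing is read from these counts. The difference, nicotine minus control, was 1.70 ± 0.34 (SE) for Slc10a2, -2.25 ± 1.03 for Slco1a1, -1.01 ± 0.41 for Slc10a1, -0.90 ± 0.33 for Slco1b2 and -0.75 ± 0.32 for Slco2b1. The authors' deposited log2 fold changes were smaller in size, at -0.30 for Slco1a1, -0.47 for Slc10a1, -0.59 for Slco1b2 and -0.46 for Slco2b1. Theirs come from DESeq2 and limma's are differences of mean log2(normalized count + 1), so they are not the same measure. For Slco1a1 the ratio of mean normalized counts, nicotine over control, was 0.525. For the ATP-driven pumps the limma difference was -0.11 ± 0.20 (Abcb4), -0.16 ± 0.14 (Abcc2), -0.14 ± 0.13 (Abcb11) and 0.16 ± 0.17 (Abcc3). On this scale the median of the 9 differences was -0.16, against a median of 3.29e-06 over all tested genes.

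Leaving out nicotine libraries 1 and 5 brought the uptake carriers close to the controls. Both were the lowest libraries for these same carriers, so a move toward the controls was fixed in advance. Slco1a1 then averaged 960 ± 12.5 normalized counts in the 3 remaining nicotine libraries (SD, n = 3), against 1133 ± 143 in control libraries (SD, n = 5), and its log2 difference was -0.23. The difference became -0.28 for Slco1b2, -0.19 for Slc10a1 and -0.12 for Slco2b1. Slco1b2 in the 3 remaining nicotine libraries, 6207 to 7878, was still below the lowest control library at 7951. Slc10a2 kept a log2 difference of 1.39, with 64.3 ± 6.69 normalized counts in the 3 nicotine libraries and 26.8 ± 13.1 in the control libraries, and these 3 libraries, 56.6 to 68.4, were still above the highest control library at 39.9. Abcb4 moved to -0.45 and Abcc2 to -0.32. Of the 3 nicotine libraries kept, library 2 held the pancreatic acinar transcripts and library 4 the skeletal muscle transcripts described above. Their part in these values was not tested.

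In female liver the groups overlapped for every transporter. Of the 9, 0 had libraries that did not overlap, against 4.73% of the 9173 tested genes, and 0 met limma's adjusted p threshold, against 3.28% of all tested genes. Abcb4 had 788, 664, 643, 826 and 734 normalized counts in female liver nicotine libraries 1 to 5, against 920, 931, 803, 910 and 964 in female liver control libraries. Only nicotine library 4 exceeded the lowest control library. Means were 731 ± 78.1 in nicotine and 905 ± 60.8 in control libraries (SD, n = 5 each), a log2 difference of -0.31 ± 0.087 (SE). Limma's adjusted p for Abcb4 was 0.0529, just above the threshold. The authors' deposited DESeq2 result gives it a log2 fold change of -0.30 with an adjusted p of 0.0267, below the threshold. There 316 of the 14781 listed genes were below it.

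Slco2b1 had 267, 304, 331, 298 and 242 normalized counts in female liver nicotine libraries 1 to 5, against 220, 224, 277, 219 and 238 in female liver control libraries. All nicotine libraries were above 4 of the 5 control libraries, and control library 3 lay inside the nicotine range. Abcc2 had 860, 931, 896, 1096 and 802 in nicotine libraries and 759, 775, 872, 776 and 789 in control libraries, again with only control library 3 inside the nicotine range. The log2 difference was 0.29 ± 0.10 (SE) for Slco2b1 and 0.20 ± 0.087 for Abcc2. Slco1a1 had 161, 60.9, 90.2, 105 and 136 normalized counts in nicotine libraries, against 201, 347, 47.0, 201 and 187 in control libraries. Control library 3 was the lowest of all 10 and the other 4 control libraries were above every nicotine library.

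The remaining female liver members overlapped widely. Slc10a2 had 16.7, 7.61, 23.6, 15.3 and 15.5 normalized counts in nicotine libraries, against 6.80, 13.5, 3.84, 14.3 and 9.10 in control libraries, from 76 reads in all nicotine and 50 in all control libraries. The nicotine values were mostly the higher ones, with library 2 among the low controls, and the log2 difference was 0.72 ± 0.35 (SE). Slco1b2 ranged from 7738 to 9950 in nicotine libraries and from 7448 to 9364 in control libraries, and Slc10a1 from 507 to 848 in nicotine libraries and from 668 to 869 in control libraries. Abcb11 ranged from 533 to 679 in nicotine and from 565 to 743 in control libraries, and Abcc3 from 32.0 to 48.2 in nicotine and from 36.1 to 46.0 in control libraries. The log2 differences of these 4 lay between -0.13 (Slc10a1) and 0.12 (Slco1b2). Among the marker lists, 12 adipocyte genes (11 listed) summed to 1814 to 2166 normalized counts in female liver nicotine libraries, above the 756 to 1541 of female liver control libraries, with Adipoq at 1.09 to 42.8 in nicotine and 0 to 9.64 in control libraries. The 12 liver endothelial markers summed to 865 to 997 in nicotine libraries, below the 1099 to 1132 of control libraries. Their part in the values above was not tested.

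**Figure D3:**
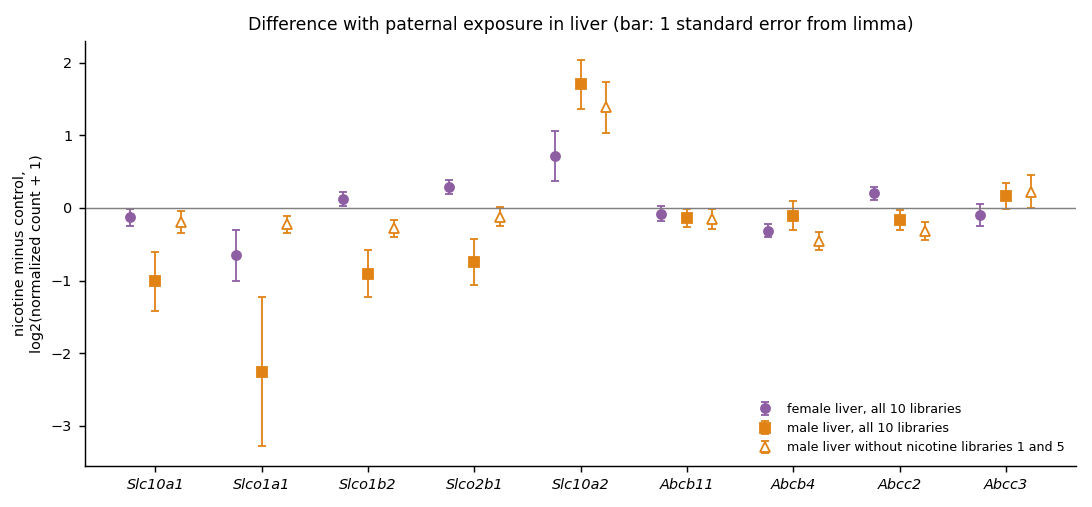
Log2 difference, nicotine minus control, of each transporter with its standard error from limma, in female liver, in male liver with all 10 libraries and in male liver without nicotine libraries 1 and 5. The 4 uptake carriers move from between -2.25 and -0.75 to between -0.28 and -0.12 when those libraries are left out, and Slc10a2 stays at 1.39.

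The change with exposure was also compared between the sexes, in a joint fit of all 20 liver libraries. For this, whole reads were recovered from both tables and divided by 1 common set of size factors, since the tables had been normalized separately. This term is built from the same differences that were known when the genes were chosen, so its values are a description. In limma's sex-by-exposure term 0 of 9 transporters met the adjusted p threshold, beside 1.54% of 9144 tested genes, and nothing is read from that count. The difference between the male and the female change was -1.03 ± 0.35 (SE) on the log2 scale for Slco2b1, -1.02 ± 0.35 for Slco1b2, -0.88 ± 0.46 for Slc10a1, -1.60 ± 1.20 for Slco1a1 (-0.11 with edgeR) and 0.99 ± 0.50 for Slc10a2. Without male nicotine libraries 1 and 5 it was -0.41 for Slco2b1, -0.40 for Slco1b2, -0.061 for Slc10a1 and, with the sign turned, 0.43 for Slco1a1.

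The sexes themselves were compared in the control livers, a contrast that the choice of these genes did not use. Among the 9 transporters 4 passed limma's adjusted p threshold, 2 higher and 2 lower in males, where 9.18% of 9144 tested genes did. Slco1a1 had 1234, 928, 1224, 1076 and 1281 jointly scaled counts in male control livers, against 197, 340, 46.0, 196 and 184 in female control livers. The sexes did not overlap, and the male mean was 5.96 times the female mean. The log2 difference, male minus female, was 2.81 ± 0.85 (SE), with an adjusted p of 0.0374 from limma over the 20 libraries. Slco1a1 is known as a male-predominant transcript of the mouse liver. Its call was lost when any 1 of 9 control libraries was left out (highest adjusted p 0.116, without female control library 3), and stood at an adjusted p of 3.12e-06 when limma was fitted to the 10 control libraries alone.

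Slc10a2 had 14.1, 11.8, 40.3, 36.7 and 33.0 jointly scaled counts in male control livers and 6.66, 13.2, 3.75, 14.0 and 8.95 in female control livers. Libraries 1, 3, 4 and 5 of the males were above all females, library 1 only narrowly, and library 2 was among them. It was higher in males by 1.41 ± 0.36 (SE) on the log2 scale, with a limma adjusted p of 0.0121. The ATP-driven pumps Abcb11 and Abcc3 were lower in males. Abcb11 had 347, 368, 398, 464 and 422 jointly scaled counts in male control livers and 684, 553, 727, 570 and 623 in female control livers, with no overlap and a log2 difference of -0.66 ± 0.11 (SE; limma adjusted p 0.000299). Abcc3 had 25.1, 19.2, 21.5, 19.9 and 22.8 in male control livers and 39.9, 39.6, 45.1, 35.4 and 39.4 in female control livers, again with no overlap and a log2 difference of -0.85 ± 0.15 (SE; limma adjusted p 0.000369). These 3 calls held when each of the 20 libraries was left out in turn.

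The other 5 did not pass in control liver. Their log2 differences, male minus female, were -0.22 ± 0.16 (SE) for Abcb4, -0.15 ± 0.11 for Abcc2, -0.12 ± 0.32 for Slc10a1, 0.10 ± 0.25 for Slco1b2 and 0.11 ± 0.25 for Slco2b1. Male and female livers lie in separate tables, so sex and table cannot be told apart, although the labels give all samples the same batch number.

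**Figure D4:**
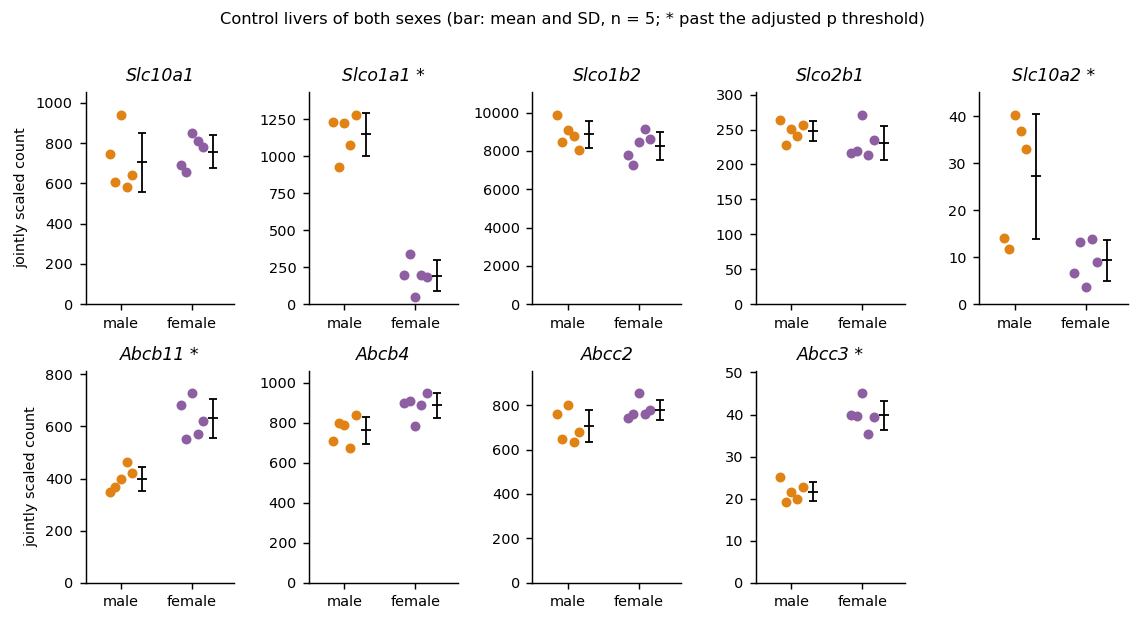
Jointly scaled counts of the 9 transporters in the 5 male and 5 female control livers, with mean and SD beside the points and an asterisk where limma's adjusted p was under 0.05. Slco1a1 and Slc10a2 are higher and Abcb11 and Abcc3 lower in males, and the 2 sexes overlap for Slc10a2 and for the 5 genes without an asterisk.

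Related genes of the pathway were read from 4 lists, chosen with earlier results known, in the same limma fits, where 3.28% of all tested genes were called in female liver and 0.055% in male liver. Of 15 genes of bile acid synthesis and conjugation, all tested in both livers, 1 was called in each. Cyp7a1, the rate-limiting enzyme of the classical pathway, rose in female liver to 718 ± 336 normalized counts in nicotine libraries, against 105 ± 37.8 in control libraries (SD, n = 5 each; log2 difference 2.71, limma adjusted p 3.92e-06). It fell in male liver to 263 ± 107 in nicotine libraries, against 789 ± 131 in control libraries (log2 difference -1.67, limma adjusted p 0.0249). That male call was lost with a mean of 50 or more and with the replicate block, where 0 genes were called in male liver. It was also lost, with 0 genes called, without any 1 of control libraries 1, 2, 3 and 5 or nicotine libraries 1 and 4. The median log2 difference of the 15 was 0.061 in female liver, with 8 above 0, and -0.36 in male liver, with 0 above 0. Over all tested genes the median was -0.0045 in female liver and 3.29e-06 in male liver. The male values include nicotine libraries 1 and 5, and the part of those libraries was not tested.

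Of the other hepatobiliary transporters, 22 were tested in female liver and 3 were called, all higher, beside the 3.28% of all tested genes. Abcg5 and Abcg8, which form the sterol exporter of the canalicular membrane, were both higher. Abcg5 averaged 175 ± 24.0 normalized counts in nicotine and 120 ± 9.03 in control libraries (limma adjusted p 0.00923), and Abcg8 271 ± 35.4 in nicotine and 191 ± 28.7 in control libraries (limma adjusted p 0.0169). Slco1a4, a close relative of Slco1a1, averaged 467 ± 39.8 in nicotine libraries and 350 ± 56.5 in control libraries (limma adjusted p 0.0289). In male liver 0 of 23 were called. Abcg8 averaged 109 ± 20.6 normalized counts there in nicotine and 176 ± 30.9 in control libraries (limma adjusted p 0.122).

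Among the receptors and factors that sense bile acids or drive these carriers, 15 were tested in each liver. In female liver 1 was called, Cebpa, a hepatocyte transcription factor, with 227 ± 15.2 normalized counts in nicotine libraries and 298 ± 45.6 in control libraries (limma adjusted p 0.0446). In male liver 0 of 15 were called and 14 had a negative difference. Their median log2 difference was -0.21, against 3.29e-06 over all tested genes. Nicotine libraries 1 and 5 are included there, and the part of those libraries was not tested. Nr1h4, the bile acid receptor FXR, averaged 152 ± 40.1 in male nicotine and 213 ± 20.5 in male control libraries (limma adjusted p 0.225), and Ahr, the aryl hydrocarbon receptor, 34.1 ± 10.7 in male nicotine and 61.0 ± 8.97 in male control libraries (limma adjusted p 0.128). Of the trafficking and scaffold genes of the canalicular membrane, 1 of 13 was called in female liver, the tight junction gene Cldn2, lower at 282 ± 47.4 in nicotine libraries against 407 ± 35.9 in control libraries (limma adjusted p 0.00701), and 0 of 14 were called in male liver.

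Likeness between genes was measured by Pearson's r of log2(normalized count + 1) across the 10 libraries of a liver table, which share their size factors and their groups, as a description. In female liver the most similar gene was C8a for Slco1a1 (r = 0.97), Pcbd1 for Slc10a1 (0.96), Hspa8 for Abcb4 (0.96), Ttc38 for Slco2b1 (0.95), Apol7a for Slco1b2 (0.94), Zpr1 for Abcc2 (0.94), Pecr for Abcb11 (0.91) and Sft2d3 for Abcc3 (0.89). In male liver no r is given, because for the 4 uptake carriers the libraries fall into separate clusters, 1 and 5 against the other 8, and for Slc10a2 the exposure groups do not overlap. Stk40 ranked most similar to Slc10a2 there. The 3 genes ranked most similar to each carrier were Mup3, Ces3b and Scp2 for Slco1a1, Nsdhl, Fabp1 and Pon1 for Slc10a1, Ttc39c, Srd5a1 and Mug1 for Slco1b2, and Gstz1, Glul and Ndrg2 for Slco2b1.

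Reads scaled to a common library total (RPM) set liver against fat. For Slc10a1, Slco1a1, Slco1b2, Abcb11, Abcb4, Abcc2 and Abcc3 every liver library was above every gWAT library, the closest being Slco1a1, with 5.94 RPM in its lowest liver library (male nicotine library 1) and 3.81 in its highest gWAT library. Slco1b2 had group medians of 4971 RPM in female liver nicotine, 4375 in female liver control, 3095 in male liver nicotine and 4566 in male liver control. In fat its medians were 19.2 in female gWAT nicotine, 11.6 in female gWAT control, 15.3 in male gWAT nicotine and 41.9 in male gWAT control. Liver and fat were far apart for this gene, and neighbouring groups within each tissue overlapped.

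Slco2b1 was the exception. Its group medians were 150 RPM in female liver nicotine, 112 in female liver control, 96.4 in male liver nicotine and 131 in male liver control. In fat they were 29.9 in female gWAT nicotine, 46.5 in female gWAT control, 89.9 in male gWAT nicotine and 78.5 in male gWAT control. Neighbours in the order of the medians overlapped throughout, and the ranges of male liver nicotine (48.4 to 128) and male gWAT nicotine (39.4 to 103) met.

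For the others the order of the liver medians differed by gene. Abcb11 had its 4 liver medians at 322 RPM in female nicotine, 323 in female control, 207 in male nicotine and 215 in male control livers, and the lowest female library (277) was above the highest male library (248). Abcc3 had 19.2 in female nicotine, 20.3 in female control, 14.4 in male nicotine and 11.6 in male control livers, with the female groups again above both male groups. Slco1a1 had 52.7 in female nicotine, 99.4 in female control, 474 in male nicotine and 627 in male control livers, and only male nicotine libraries 1 and 5 reached into the female range or below it. Slc10a2 had 7.98 in female nicotine, 4.65 in female control, 36.3 in male nicotine and 16.8 in male control livers, and the male nicotine range did not overlap the next.

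In gWAT few transporters reached a mean of 10 normalized counts, the filter for testing. In female gWAT Slco1b2 and Slco2b1 were tested and 0 of these 2 met limma's adjusted p threshold, beside 25.2% of 10532 tested genes. In male gWAT Slco1b2, Slco2b1 and Abcb4 were tested and 0 of 3 met it, as did 0.0% of 11210 tested genes, where 182 genes had an unadjusted p under 0.05 and edgeR and DESeq2 also called 0. The untested members averaged at most 13.8 normalized counts in any gWAT group. Adipoq, the adipocyte hormone that identifies the tissue, stood at 2900 to 9040 normalized counts in all gWAT libraries.

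Slco1b2 had 47.0, 44.7, 17.3, 16.8 and 36.6 normalized counts in female gWAT nicotine libraries 1 to 5, against 39.2, 19.2, 27.9, 8.24 and 4.97 in female gWAT control libraries. In male gWAT it had 173, 60.2, 25.2, 20.8 and 12.0 in nicotine libraries 1 to 5, against 80.6, 82.8, 37.0 and 64.3 in the 4 control columns. The groups overlapped in both sexes, and male nicotine library 1 was the highest of all 19 gWAT libraries. The hepatocyte markers, 13 of 14 listed and all 13 above 0 in male gWAT, summed to 5734 normalized counts in that library, with Alb at 1866, against 328 to 725 in the other 4 male gWAT nicotine libraries and 683 to 1110 in male gWAT control libraries.

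Slco1b2 was also set against these markers as a share of their sum. It was 4.93 to 10.7% of the hepatocyte marker sum in female gWAT nicotine libraries, 2.49 to 8.25% in female gWAT control libraries, 3.02 to 8.31% in male gWAT nicotine libraries and 5.42 to 7.52% in male gWAT control libraries. In liver it was 5.34 to 7.65% in female nicotine, 5.05 to 7.21% in female control, 2.26 to 6.11% in male nicotine and 6.08 to 7.56% in male control libraries. The tissues overlapped in this share. For Slco2b1 they did not, at 1.24 to 53.5% of the marker sum over the gWAT libraries and 0.073 to 0.263% over the liver libraries. The part of hepatocyte transcripts in the gWAT values was not tested.

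**Figure D5:**
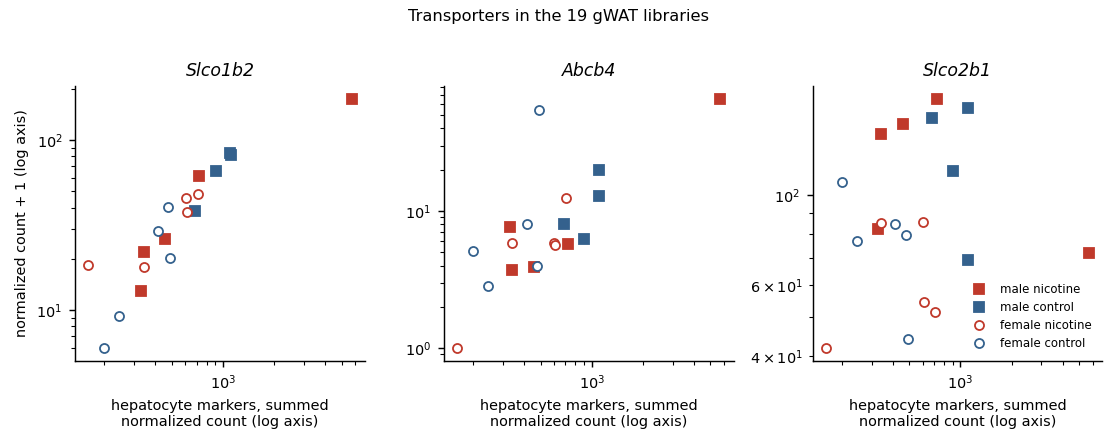
Normalized count plus 1 of Slco1b2, Abcb4 and Slco2b1 against the summed hepatocyte markers in each of the 19 gWAT libraries, both on log axes, with nicotine in red, control in blue, males as squares and females as open circles. Slco1b2 and Abcb4 are highest in male nicotine library 1, which has the highest marker sum, Abcb4 also has a high female control library at 53.1, and Slco2b1 is not high in male nicotine library 1.

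Slco2b1 had 50.4, 84.5, 40.9, 84.1 and 53.4 normalized counts in female gWAT nicotine libraries, against 78.4, 43.1, 83.8, 76.0 and 107 in female gWAT control libraries. In male gWAT it had 71.0, 171, 148, 140 and 81.3 in nicotine libraries, against 67.9, 163, 154 and 114 in control libraries. Both pairs of groups overlapped, with log2 differences of -0.31 ± 0.26 (SE) in females and -0.030 ± 0.34 in males. Abcb4 had 64.6, 4.71, 2.90, 2.72 and 6.67 in male gWAT nicotine libraries, against 19.0, 11.8, 7.00 and 5.21 in male gWAT control libraries, and Abcb11 had 34.4 in nicotine library 1 and 0 to 1.94 in the other 4, against 3.00 to 6.37 in male gWAT control libraries. Both were high in the library with the most hepatocyte transcripts. Abcc2 and Abcc3 were also highest there, at 18.3 and 7.53, against 3.00 to 7.81 and 0 to 4.53 in male gWAT control libraries. Slc10a1 and Slco1a1, at 5.38 and 4.30 there, lay within the control ranges of 0 to 7.81 and 1.74 to 6.37. Abcb4 also stood at 53.1 in female gWAT control library 2, against 0 to 11.5 in female gWAT nicotine libraries and 1.83 to 6.99 in the other 4 female gWAT control libraries. Skeletal muscle markers, all 12 listed, summed to 33062 in that library and to 20.4 to 1754 in the other 9, and their part in the Abcb4 value was not tested.

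Between the sexes of control gWAT, 0 of 3 tested transporters passed limma's adjusted p threshold, where 1.52% of 10891 tested genes did. Slco1b2 averaged 62.6 ± 20.6 jointly scaled counts in male control gWAT (SD, n = 4) and 20.9 ± 14.8 in female control gWAT (SD, n = 5), a log2 difference of 1.79 ± 0.62 (SE) with a limma adjusted p of 0.170. Its unadjusted p, 0.00925, was the only 1 of the 3 under 0.05, edgeR also called 0 of 3, and its adjusted p ran from 0.0791 to 0.313 on leaving out each library. The hepatocyte marker sums of the same libraries did not overlap, 683 to 1110 in males and 200 to 488 in females, each within its own table. In the sex-by-exposure term of gWAT, again a description, 0 of 3 met the threshold, beside 8.16% of all tested genes.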

How the data were processed

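RNA of liver and gWAT was measured in 8 groups. Each deposited table gives normalized counts, a signal the authors made with 1 DESeq2 size factor per library, separately in 4 tables. Per the file headers, the authors' tables also give a log2 fold change of nicotine over DMSO with its p-value and adjusted p-value, used only where named. Cutadapt, STAR, DESeq2 and the mm10 build are listed in the submitters' processing notes, without versions. Neither the counting step nor its annotation or use of strand is stated in the sources used here. Per the labels' protocols, RNA was extracted with a Zymo kit and sequenced as 3′-tag libraries.

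Whole reads were recovered from the value of 1 read in each library, and 100% of values came out whole within 0.1 reads. No pair of libraries of a group agreed within sampling noise. Nicotine and control were compared within a table with limma 3.58.1 (R 4.3.3, mean trend) on log2(normalized count + 1). Genes averaging at least 10 were tested, with Benjamini-Hochberg adjustment over all of them and a threshold of 0.05. The sexes were compared in a joint limma fit per tissue on recovered reads under 1 set of median-of-ratios size factors. As count tests on recovered reads, edgeR 4.0.16 called 300 genes and DESeq2 1.42.0 called 312 in female liver, with 3 by edgeR and 161 by DESeq2 in male liver, 2558 by edgeR and 2925 by DESeq2 in female gWAT, and 0 by both in male gWAT. Other alternatives were other pseudocounts and filters, TMM scaling, a replicate block and leaving out libraries. Python 3.11.15, pandas 2.3.3, NumPy 2.4.6 and matplotlib 3.10.9 made the tables and figures, and the code was tested on simulated data.

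The members and gene lists were chosen with earlier results of these data known. All 9 members are named. From each of 4 pathway lists the rule names the genes past the threshold in a liver table and otherwise the 2 of smallest p, some of which are left unprinted, and for likeness the 3 genes of highest r with a mean of 20 or more. RPM are recovered reads per library scaled to the same total. Gene locations came from GENCODE M21 (mm10), where the genes that overlap members lie away from their 3′ ends and are not listed in the tables.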

Additional observations from a re-analysis of the deposited data

Results flagged for a closer look

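Over 46 groups of values of members tested in a table, 2 held a library far from the rest of its group. The measure was the gap to the nearest library as a share of the group's range, where chance gives about 1 in 20 groups. It misses libraries that lie apart together, as male liver nicotine libraries 1 and 5 did for the uptake carriers. Abcc2 stood at 872 normalized counts in female liver control library 3, against 759 to 789 in the other 4 female liver control libraries. Abcb4 stood at 64.6 in male gWAT nicotine library 1, against 2.72 to 6.67 in the other 4 male gWAT nicotine libraries. Abcb11 was not tested in male gWAT, nor Abcb4 in female gWAT, and neither is among the 2. Yet Abcb11 stood at 34.4 in male gWAT nicotine library 1, against 0 to 1.94 in the rest of its group. Abcb4 stood at 53.1 in female gWAT control library 2, against 1.83 to 6.99 in the rest.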

How the results depend on the processing

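In female liver the count of genes called, 301, ran from 185 (without control library 5) to 329 when each library was left out in turn, was 195 without nicotine library 4, and was 181 without control library 4 and nicotine library 5 together. Transporters called there, 0, became 1 (Abcb4) with a mean of 50 or more, with DESeq2 and with the replicate block, and 0 to 2 when each library was left out (Abcb4 without nicotine library 4, and Abcb4 and Slco1a1 without control library 3). In male liver the 5 genes called became 0 with a mean of 50 or more, 3 with edgeR, 161 with DESeq2, 0 with the replicate block and 0 to 16 on leaving out each library, and DESeq2 called 1 transporter (Slc10a2). Genes called for sex by exposure in liver, 141, ran from 66 to 286 on leaving out each library, and 2 transporters (Slco1b2 and Slco2b1) were called without male nicotine library 2 and 1 (Slco2b1) without library 3. Between the sexes of control liver 839 genes were called, and 1389 with the control libraries alone. A mean of 50 or more left 2 transporters called there, since Slc10a2 and Abcc3 fall below it. In gWAT the 889 genes called for sex by exposure ran from 440 to 1118, and the 165 between control sexes from 89 to 199, on leaving out each library. The log2 difference of Abcb4 between control gWAT sexes turned to -0.51 with edgeR, and ran from -0.0017 (without female control library 4) to 0.62 on leaving out each library. Apart from the filter, the cause was not tested. Same-numbered libraries correlated at -0.28 to 0.17 in their deviations, and differently numbered libraries at -0.36 to 0.45. These values cannot decide whether the replicate numbers pair the samples, and the main fits used no block. With the replicate block, chosen for the joint liver fits after seeing the data, 341 genes were called in female liver, 2011 in female gWAT, 139 for sex by exposure in liver and 797 between control sexes, with the same number of 4 transporters. No block was fitted in male gWAT, where 4 control columns stand for 5 labelled samples. Of 420 alternative log2 values of transporters for exposure 418 moved by less than 1 SD between replicates, which is wide in male liver, where leaving out nicotine libraries 1 and 5 brought Slco1a1 to -0.23, Slc10a1 to -0.19, Slco1b2 to -0.28 and Slco2b1 to -0.12, and of 321 between control sexes 310 kept their direction and side of the threshold, with 9 values of Slco1a1 no longer past it. Few reads limit Slc10a2 in female liver and most members in gWAT.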
